A study of Mus musculus with 15 samples.

Results

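Chromosomal DNA replication genes were followed in microglia of mice given an antibody that activates TREM2. The 46 genes were taken from a written list of replication and S phase genes, sorted into 11 roles, and all 46 were found among the 32372 genes of the deposited matrix. All 46 also passed the filter on low counts, among 14260 genes tested. Mcm10, Cdc6 and Orc1 passed it only through the treated mice of day 1, the group where they were high. The list itself used no measured value, but it was drawn up with results of these data known.

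The cells were microglia enriched with CD45 beads from the cortex and hippocampus of 15 male C57BL/6J mice aged 3.5 months, and each mouse had been given 1 dose of 10 mg/kg. All mice, controls included, were hTfR KI, a knock-in of human transferrin receptor sequence that the antibody vehicle needs to enter the brain. ATV:4D9 carries a TREM2 antibody on this transport vehicle (ATV), and ATV:RSV, the control, pairs the vehicle with another antibody. There were 5 groups of 3 mice: controls taken at day 1, and treated mice taken at day 1, 7, 14 or 28. Each of 3 processing batches held 1 mouse of every group. No control was sampled at days 7, 14 or 28, so the comparisons of all days share their 3 control mice, and time since dosing and treatment cannot be told apart at those days.

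Replication begins with licensing, when the origin recognition complex, CDC6 and CDT1 load the MCM2-7 helicase onto origins. At the start of S phase, CDC45, the GINS complex and MCM10 turn the loaded helicase into a moving one, and polymerases alpha, delta and epsilon copy the strands behind it with the sliding clamp PCNA, its loader RFC and the single-strand binder RPA. Enzymes of deoxynucleotide synthesis provide the building blocks, and many of these genes are known targets of E2F transcription factors. Microglia of the adult brain divide rarely, and TREM2 signaling is known to favor their survival and proliferation.

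The deposited files held 102043 cells with 5667 to 7596 per mouse, and 32341960 to 70307384 unique molecular identifiers (UMIs, 1 per captured RNA molecule) per mouse. The median depth per cell was higher in the ATV:4D9 day 1 mice (8201.5 to 8995.5 UMIs) than in the ATV:RSV mice (4975 to 5750). Microglial markers stood at 26130 to 28380 summed CPM (UMIs of a gene scaled to a common library total) in the day 1 mice and at 31060 to 33580 in the ATV:RSV mice. In the whole table, 1283 barcode sequences occurred in 2 or more mice, and they covered 2579 cells. In sums per mouse, more RNA per cell and more cells with a gene cannot be told apart, and the readings per cell are therefore given separately.

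The promoters of these genes carried E2F-type letters more often than promoters at large. The RefSeq promoter table (GRCm38.p6) held windows for 38 of the 46 genes, each 300 bases long from 250 before to 50 after the start, with no window for Mcm4, Gins1, Gins2, Gins4, Rfc2, Prim2, Pole and Tipin. Both strands were searched for TTTCCCGC, TTTGGCGC, TTTCGCGC and TTTGCCGC. At least 1 of them stood in 15 of the 43 windows of these genes (34.9%), in 744 of 32851 windows of all genes (2.26%) and in 3.4% of the 10806 windows whose GC content lay in the middle range of the replication genes (52.7% to 65.3%). TTTCCCGC stood in 16.3% of their windows and in 1.07% of all windows, TTTGGCGC in 14% and 0.514%, TTTCGCGC in 16.3% and 0.323%, and TTTGCCGC in 0% and 0.441%. By gene, 15 of 38 had a match. In the 39 other replication genes described further on, 8 of 40 windows (20%) had a match. TTTCCCGC stood in 15% of these windows, close to its share among the 46, whereas TTTGGCGC and TTTCGCGC stood in 2.5% each, below theirs. The pentamer CCAAT, which is part of none of these motifs, stood in 55.8% of their windows and in 37.4% of all windows. In 8 genes a match lay upstream of the RefSeq start. The stretches of 4 of them, picked by choice, are shown, and these lay outside every GENCODE exon. That of Cdc6 lies within the GENCODE gene model of Cdc6, which starts further upstream. The capitals mark the matched letters, read on either strand.
Cdc6, chr11:98907991-98908042, + strand: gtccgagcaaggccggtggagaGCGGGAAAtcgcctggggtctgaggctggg
Mcm5, chr8:75109334-75109389, + strand: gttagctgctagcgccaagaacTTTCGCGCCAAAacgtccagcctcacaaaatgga
Mcm6, chr1:128359723-128359837, − strand: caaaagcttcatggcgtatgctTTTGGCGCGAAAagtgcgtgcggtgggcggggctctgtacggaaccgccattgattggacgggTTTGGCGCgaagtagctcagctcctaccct
Pola1, chrX:93632264-93632315, − strand: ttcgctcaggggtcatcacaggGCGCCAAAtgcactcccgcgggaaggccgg
In Mcm5 and at the first site of Mcm6 the matches on the 2 strands overlap, so that the capitals there hold 2 matches each, and Mcm6 has 3 matches in all. Genes with a match had a median log2 fold change at day 1 of 3.73 (n = 15, 1.25 to 7.49) and genes with a window but no match 3.00 (n = 23, 1.12 to 7.74), and the 2 ranges overlapped. A match describes letters in a short window and does not show a bound site.

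At day 1, all 46 replication genes rose in the ATV:4D9 mice. Each was called higher by limma-voom at an adjusted p under 0.05, whereas 34.7% of all genes tested were called higher and 34.6% lower in the same comparison. The median log2 fold change was 3.48, against -0.0458 over all genes, and single genes ranged from 0.92 for Gins4 to 7.74 for Mcm10. A change of at least 2-fold was seen in 45 of the 46, and of at least 8-fold in 26. In all 46, every ATV:4D9 day 1 mouse was above every ATV:RSV mouse, and the median difference within batch 1, 2 and 3 was 3.16, 3.58 and 3.54. The fold cuts and the overlap of mice were not counted over all genes tested, so those counts describe the 46 only. Summed over the 46 genes, the level was 419.5, 413.9 and 408.4 CPM in the 3 ATV:RSV mice and 2692, 3153 and 3100 CPM in the 3 ATV:4D9 day 1 mice. The treated mouse of batch 1 had the lowest day 1 level for 44 of the 46 genes. CPM values here are scaled by TMM, and log2 fold changes come with their standard errors (SE) from the limma-voom fit over all 15 mice. With library size in place of TMM the median over all genes moved to -0.285 and that of the 46 to 3.24, with 46 still called.

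**Figure D1:**
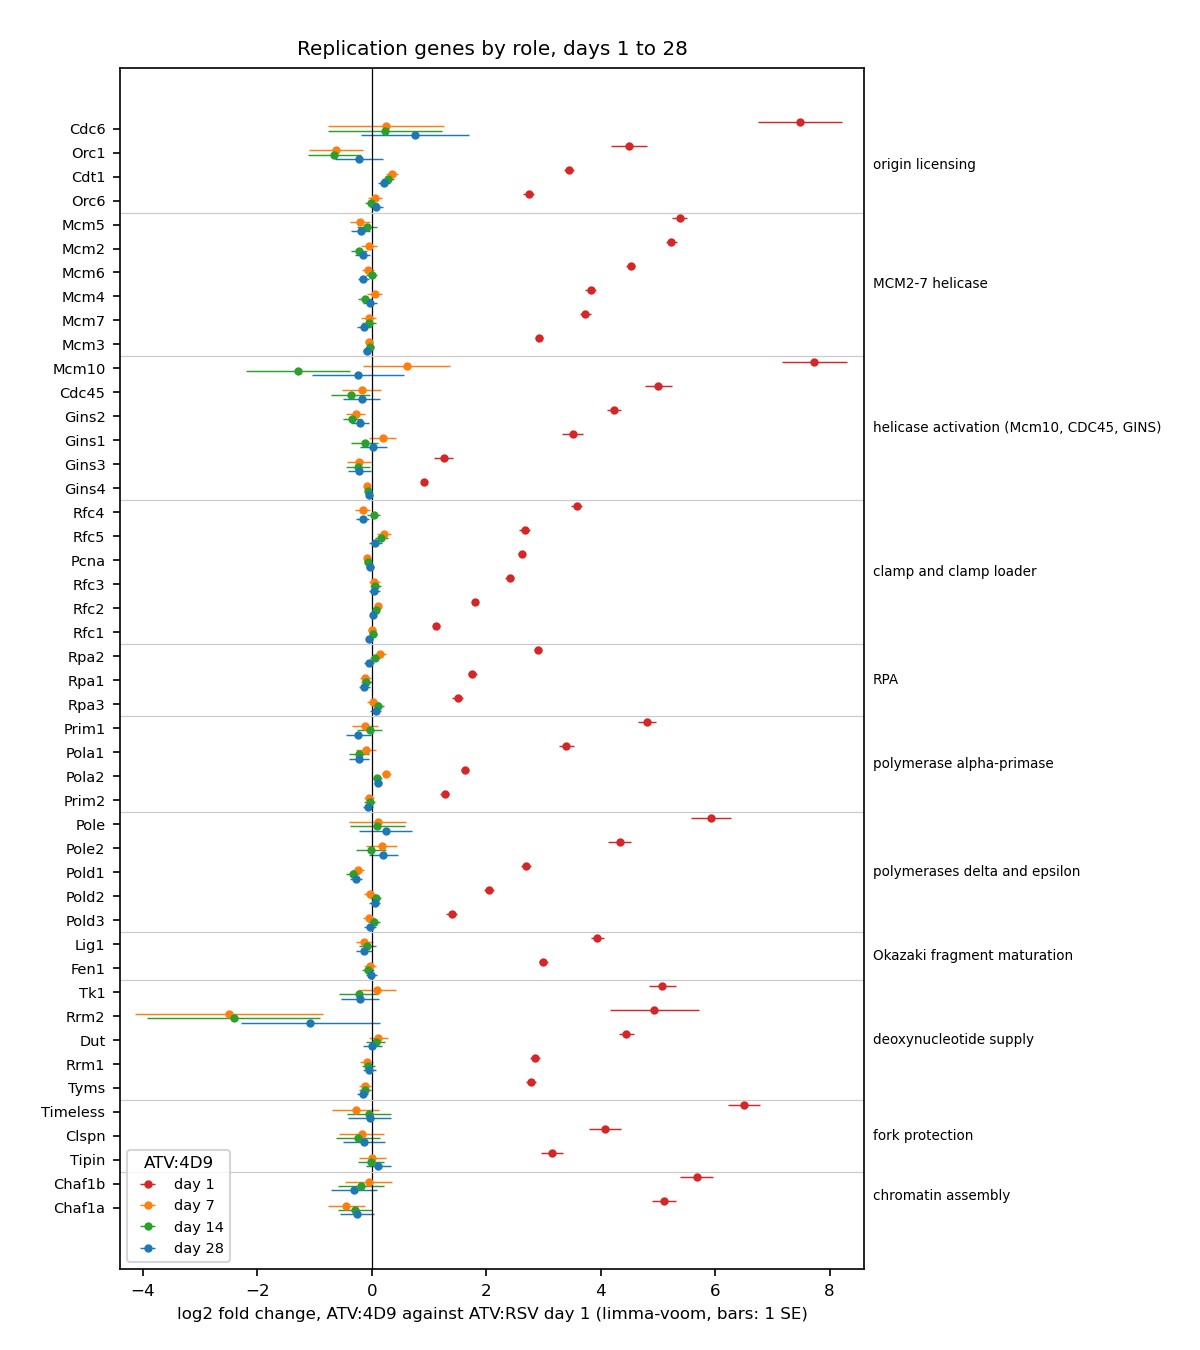
Log2 fold change of each of the 46 genes (x axis, limma-voom, bars 1 SE) at days 1, 7, 14 and 28 of ATV:4D9 against the same 3 ATV:RSV mice, with genes on the y axis grouped by role. All 46 day 1 points lie right of 0, from 0.92 for Gins4 to 7.74 for Mcm10. Most points of later days lie around 0, with wide bars for genes of few UMIs such as Rrm2, Cdc6 and Mcm10. Rrm2 lies lowest, at -2.49 at day 7 and -2.41 at day 14.

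The 4 licensing genes rose by 2.74 to 7.49 on the log2 scale. Cdc6 (mm10, chr11:98907801-98923940), the loader that recruits the helicase to origins, had 11, 0 and 5 UMIs in the ATV:RSV mice and 751, 924 and 638 in the ATV:4D9 day 1 mice. Its fitted log2 fold change of 7.49 ± 0.735 (SE, adjusted p = 1.87e-07) rests on those few control UMIs and moved between 6.23 and 8.39 over the alternatives. Orc1, the large subunit of the origin recognition complex, had 9, 15 and 8 UMIs in controls and 299, 394 and 253 at day 1. Both genes were thus close to undetected in control microglia, and both passed the filter on low counts only through the ATV:4D9 day 1 mice. Cdt1, the partner of CDC6 in loading, was at 5.09, 4.51 and 4.65 CPM in controls and at 48.3, 54.2 and 53.2 CPM at day 1 (log2 fold change 3.44 ± 0.0864, adjusted p = 5.13e-14). Orc6, the smallest subunit of the complex, went from 10.6, 10.5 and 10.7 CPM to 62.7, 79.0 and 71.7 CPM (log2 fold change 2.74). Cdt1 had at least 187 UMIs and Orc6 at least 433 in each control mouse. For all 4 genes, the day 1 values lay above those of every control mouse, a separation that was not counted over all genes tested. Cdt1 lies within a longer gene model on the same strand (Gm20388), so its UMIs are less certain than those of the other licensing genes.

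All 6 subunits of the MCM2-7 helicase rose, from 2.92 for Mcm3 to 5.38 for Mcm5. Mcm6 (chr1:128331590-128359664), whose promoter stretch holds 3 matches, was at 5.83, 6.80 and 6.25 CPM in controls and at 136.6, 150.2 and 146.8 CPM at day 1, a 23-fold difference (log2 4.53 ± 0.0793, adjusted p = 2.65e-15). Mcm3 stood at 26.4, 27.8 and 27.7 CPM in controls and at 190.2, 216.7 and 212.5 CPM at day 1 (log2 2.92 ± 0.0665). Mcm3 was the subunit with the smallest fold change. Mcm5 (chr8:75109569-75128439) went from 3.03, 2.56 and 2.15 CPM to 99.1, 113.3 and 110.0 CPM, and Mcm2, Mcm4 and Mcm7 rose by 5.24, 3.82 and 3.73 on the log2 scale. The groups did not overlap for any of the 6, a reading that was not counted over all genes tested. The subunits were not tested against each other.

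**Figure D2:**
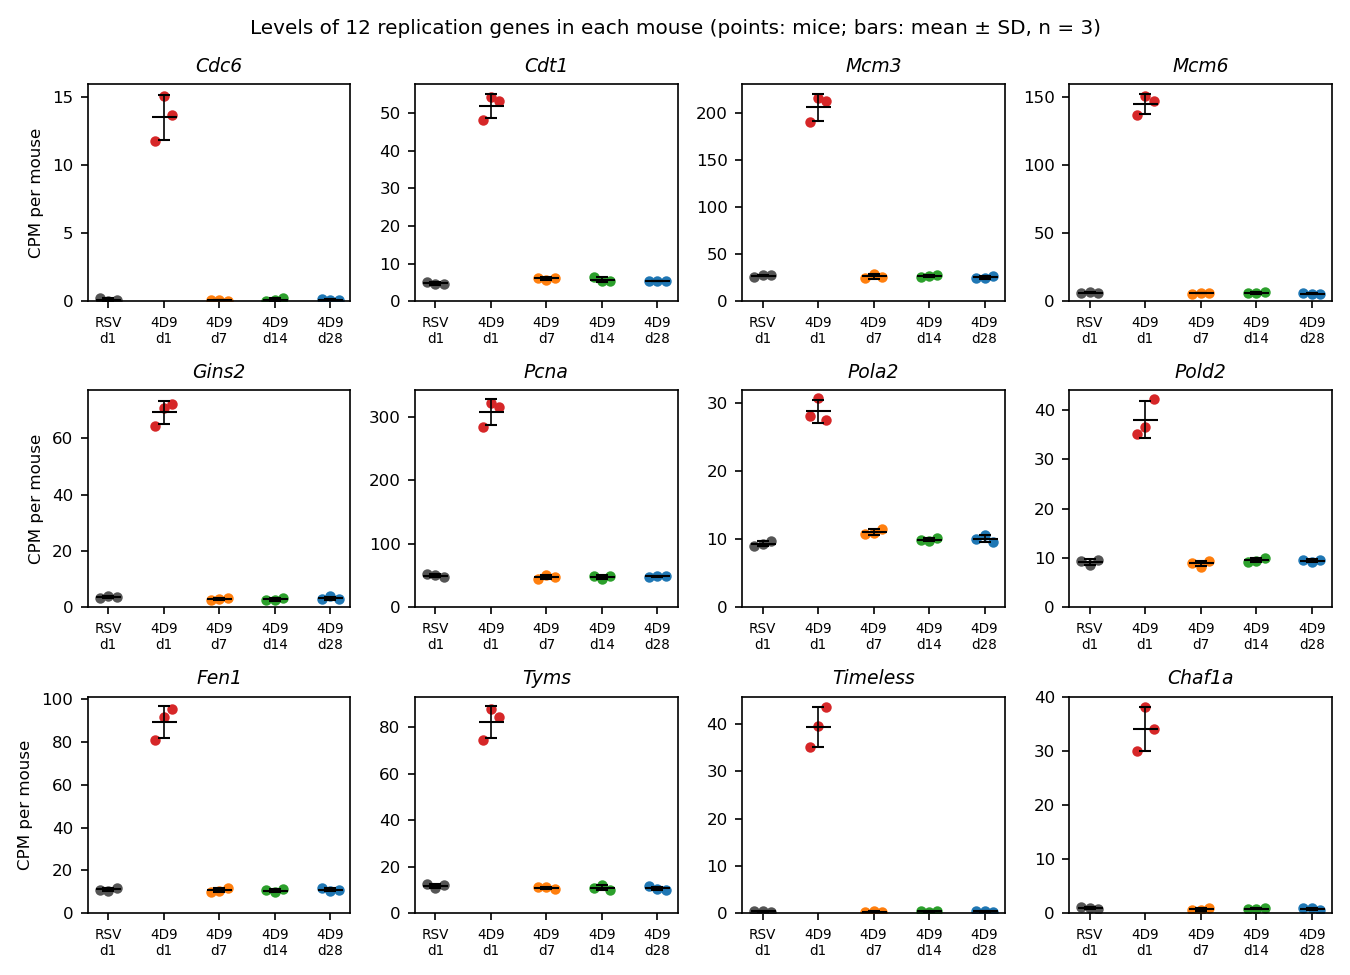
CPM per mouse (y axis, each panel from 0 and on its own scale) of 12 of the genes in the 5 groups (x axis), with points for mice and bars for mean ± SD (n = 3). In each panel the 3 ATV:4D9 day 1 mice stand above all others. Mcm6, for example, is at 136.6 to 150.2 CPM against 5.83 to 6.80 CPM in ATV:RSV. The later days lie at or near the ATV:RSV level. For Cdt1 at days 7, 14 and 28 and Pola2 at days 7 and 14, all 3 mice lie above the ATV:RSV mice.

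The genes that activate the helicase held both ends of the range. Mcm10 (chr2:4989714-5012791), needed to start unwinding, had 5, 2 and 2 UMIs in controls and 857, 1168 and 741 at day 1, which gave the highest fitted value of the list (log2 7.74 ± 0.569, adjusted p = 6.38e-09, 7.49 to 8.39 over the alternatives). Mcm10 passed the filter on low counts only through the ATV:4D9 day 1 mice, so its fitted value is rough. Cdc45 rose by 5.01 and Gins1 by 3.51. Gins2 was at 3.37, 3.96 and 3.77 CPM in controls and at 64.4, 70.9 and 72.3 CPM at day 1 (log2 4.23). The other 2 subunits of the same 4-part GINS complex had smaller fold changes, Gins4 from a higher control level, and no test compared the subunits. Gins4 stood at 23.1, 23.9 and 24.6 CPM in controls and at 43.4, 44.5 and 47.6 CPM at day 1 (log2 0.92 ± 0.0499, adjusted p = 1.78e-10), and Gins3 at 2.68, 2.15 and 2.05 CPM and then at 4.84, 6.42 and 5.31 CPM (log2 1.25 ± 0.166, adjusted p = 5.58e-06). Both rose beyond the spread between mice, with no overlap of the groups, which was not counted over all genes tested.

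The sliding clamp and its loader rose by 1.12 to 3.58. Pcna (chr2:132249162-132253314), the clamp itself, was at 52.1, 50.2 and 47.5 CPM in controls and at 284.2, 321.8 and 315.5 CPM at day 1 (log2 2.62 ± 0.0613, adjusted p = 3.07e-14). Its loader is RFC, of 1 large and 4 small subunits. The large subunit Rfc1 rose least, from 42.9, 45.2 and 40.4 CPM to 86.5, 100.5 and 93.3 CPM (log2 1.12), and Rfc3, Rfc5 and Rfc4 rose by 2.41, 2.68 and 3.58. The small subunit Rfc2 went from 35.8, 38.2 and 38.9 CPM to 126.5, 134.6 and 132 CPM (log2 1.80 ± 0.0474), with the 3 treated mice far above the controls. The 3 RPA genes, whose product coats single-stranded DNA, rose by 1.501 for Rpa3, 1.76 for Rpa1 and 2.91 for Rpa2. Rpa2 went from 8.53, 8.56 and 8.04 CPM to 57.6, 65.4 and 66.3 CPM, and Rpa3 from 18.8, 13.5 and 16.6 CPM to 45.5, 42.4 and 50.4 CPM. Pcna and Tyms have pseudogene copies in GENCODE, so their UMIs could be incomplete.

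Among the polymerases, the primase pair differed. Prim1, the catalytic primase, rose by 4.81, whereas its partner Prim2 rose from 11.6, 11.2 and 11.3 CPM to 26.4, 30.0 and 26.6 CPM (log2 1.28 ± 0.0779). Pola1, the catalytic subunit of polymerase alpha, rose by 3.40 and its accessory subunit Pola2 by 1.63, from 9.02, 9.24 and 9.71 CPM to 28.1, 30.7 and 27.5 CPM. The same order of catalytic over accessory subunit held for Pole and Pole2 of polymerase epsilon, at 5.93 and 4.33, and for Pold1, Pold2 and Pold3 of polymerase delta, at 2.69, 2.05 and 1.40. In each of these sets the catalytic gene had the lowest mean CPM in controls. At day 1, Prim1 and Pola1 had a higher mean CPM than their partners, whereas Pole and Pold1 had a lower one. No test compared the subunits with each other. Pold2 was at 9.34, 8.47 and 9.59 CPM in controls and at 35.2, 36.6 and 42.2 CPM at day 1, and Pold3 at 20.3, 19.9 and 17.2 CPM and then at 43.8, 55.2 and 52.9 CPM. Pole had 13, 8 and 13 UMIs in controls and 861, 1132 and 779 at day 1. Pole2 overlaps another gene model on the same strand (Gm49384).

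Lagging strand and chromatin genes rose as well. Fen1, the flap endonuclease that trims Okazaki fragments, went from 10.98, 10.5 and 12 CPM to 80.8, 91.8 and 95.3 CPM (log2 3.00), and Lig1, the ligase that seals them, from 8.55, 8.85 and 7.87 CPM to 107.8, 142.6 and 140.5 CPM (log2 3.94). Chaf1a and Chaf1b, subunits of the CAF-1 complex that loads histones onto new DNA, rose by 5.10 ± 0.21 and 5.67 ± 0.286. Chaf1a was at 1.17, 0.989 and 0.787 CPM in controls and at 29.9, 38.1 and 34.1 CPM at day 1, and Chaf1b at 0.613, 0.531 and 0.430 CPM and then at 23.1, 29.6 and 29.9 CPM. Each treated mouse was far above every control mouse for both, without a count of such genes over all genes tested. In the fork protection group, Timeless was at 0.511, 0.531 and 0.263 CPM in controls and at 35.02, 39.6 and 43.5 CPM at day 1, a 91-fold difference (log2 6.51 ± 0.276, adjusted p = 1.15e-11). Its binding partner Tipin rose by 3.15 ± 0.189, from 9.34, 11.5 and 12.3 CPM to 80.3, 99.8 and 114.0 CPM. Clspn, a checkpoint adaptor at the fork, rose by 4.08 ± 0.278, from 2.23, 2.05 and 1.79 CPM to 25.3, 40.0 and 40.6 CPM.

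The 5 genes of deoxynucleotide supply rose by 2.78 to 5.08. Tyms, which makes dTMP, was at 12.74, 11 and 12.03 CPM in controls and at 74.4, 87.9 and 84.4 CPM at day 1 (log2 2.78 ± 0.082), and Dut, which removes dUTP, at 5.50, 4.70 and 5.01 CPM and then at 96.1, 123.6 and 115.9 CPM (log2 4.45 ± 0.13). Tk1, the thymidine kinase of S phase, rose by 5.08. Rrm1 and Rrm2 encode the large and small subunits of ribonucleotide reductase, and they rose by 2.85 ± 0.0945 and 4.94 ± 0.779. The SE of Rrm2 was the largest of the list at day 1, with 63, 12 and 16 UMIs in the 3 control mice and 720, 1418 and 902 in the day 1 mice. Its difference within batch 1, 2 and 3 was 3.09, 6.1 and 5.49 on the log2 scale, so the size of the rise depends on the mouse. Values per mouse of Rrm2, Orc1, Mcm5, Pole and Pold1 are given by choice after they were seen.

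Genes of the same pathway outside the 46 were read from the same fit. Of 39 such genes, 33 rose at day 1, 3 fell and 3 were not called, with a median log2 fold change of 1.79 (34.7% of all genes tested were called higher). The highest were Dscc1, a subunit of an alternative clamp loader, at 5.22, Ticrr, a factor of origin firing, at 4.98, and Wdhd1, a replisome adaptor, at 4.35. Ticrr had 9, 6 and 2 UMIs in the ATV:RSV mice, and Recql4 (log2 4.26) had 7, 4 and 7. Both passed the filter on low counts only through the ATV:4D9 day 1 mice, so their values are rough. The count of 33 includes both. Gmnn, the inhibitor of CDT1, rose by 4.05 and the kinase Cdc7 by 3.87. The genes that fell were Rrm2b, the small ribonucleotide reductase subunit that works outside S phase, by 0.94, Orc5 by 0.31 and Pold4 by 0.25 on the log2 scale. Rrm2b was at 26.2, 30.5 and 29.6 CPM in controls and at 14.5, 15.1 and 15.2 CPM at day 1 (adjusted p = 3.33e-08), opposite in direction to Rrm2. Of the 3 not called, Orc4 had -0.0013, Samhd1 -0.09 and Chtf8 0.11 on the log2 scale.

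By day 7 the rise was gone. Against ATV:RSV, limma-voom called 0 of the 46 genes higher or lower (2.99% of all genes were called higher and 0.996% lower), 4 had an unadjusted p under 0.05 (2336 of all 14260 genes did), and the median log2 fold change was -0.0523. From day 1 to day 7 of ATV:4D9, all 46 fell, by a median log2 fold change of -3.41 (-7.43 to -1.01), where 33.9% of all genes were called lower and 33% higher. Their summed level was 396.7, 416.8 and 416.3 CPM in the 3 day 7 mice, inside or just below the range of the ATV:RSV mice. Pola2 came nearest to a call at day 7, at 10.7, 10.9 and 11.6 CPM against 9.02, 9.24 and 9.71 CPM in controls (log2 0.25 ± 0.075, adjusted p = 0.0739), and Cdt1 followed at 6.20, 5.75 and 6.28 CPM against 5.09, 4.51 and 4.65 CPM (log2 0.36 ± 0.108, adjusted p = 0.0809). For both, the 3 day 7 mice were above the 3 ATV:RSV mice. edgeR and DESeq2 each called these 2 genes, and only these, higher at day 7. The replicate block of batch in limma-voom called 1, Pola2 (adjusted p = 0.0402).

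At days 14 and 28, limma-voom again called 0 of the 46 in each comparison, and so did edgeR and DESeq2 (all genes: 0.386% called higher and 0.014% lower at day 14, and 0% in each direction at day 28). At an unadjusted p under 0.05 there were 2 genes at day 14 and 1 at day 28, and 770 and 571 of all 14260 genes. The medians were -0.0535 and -0.061, and the summed levels ran from 402.0 to 418.7 CPM at day 14 and from 398.3 to 408.5 CPM at day 28. Pold1 had the lowest p at both days, chosen for this after its values were seen, with 4.33, 3.94 and 3.90 CPM at day 14 and 4.14, 4.30 and 4.24 CPM at day 28 against 5.56, 4.97 and 4.84 CPM in controls. Its log2 fold changes of -0.34 and -0.28 had adjusted p-values of 0.472 and 1. Cdt1 remained at 5.27 to 6.47 CPM at day 14 and at 5.50 to 5.52 CPM at day 28, above the 3 control mice, without a call at either day. Rrm2 varied most between mice after day 1. It had 0, 1 and 43 UMIs at day 7, 1, 1 and 41 at day 14 and 33, 7 and 8 at day 28, so that 1 mouse carried most of the UMIs in each of these groups. Among the other 39 genes, Dna2, a nuclease of Okazaki fragment processing, remained higher at day 7 (3.26, 4.73 and 3.83 CPM against 1.31, 1.62 and 1.77 CPM, log2 1.32 ± 0.215, adjusted p = 0.00145). Pold4, which had fallen at day 1, was higher than in ATV:RSV at day 7 (log2 0.24, adjusted p = 0.046). None of the 39 was called at day 14 or 28 (0 genes), with 1 and 2 at an unadjusted p under 0.05.

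How the day 1 signal was spread over cells was read after thinning every cell to 3385 UMIs, since cells of the day 1 mice were deeper, which left out 10204 shallower cells (10% of all). The loss was uneven, at 3.93%, 4.77% and 5.79% of cells in the ATV:4D9 day 1 mice and 8.69%, 17.8% and 11.8% in the ATV:RSV mice. A cell of the ATV:RSV mice had a UMI of a median of 1 of the 46 genes and a cell of the ATV:4D9 day 1 mice of a median of 6. Cells with 5 or more of the genes made up 62.5%, 69.9% and 67.1% of the cells in the 3 day 1 mice, or 12950 of 19482 cells, and 1.90%, 1.29% and 1.42% in the ATV:RSV mice, or 275 of 17717. At days 7, 14 and 28 the mean shares were 0.865% ± 0.197, 1.02% ± 0.271 and 1.05% ± 0.309 (SD, n = 3). The number of genes per cell formed a single broad range at day 1, without a gap at the cut of 5. There 1664 cells had 4 of the genes and 1686 had 5, 546 had none and the highest had 27. With a cut of 10 the day 1 share was 28.1% and with a cut of 3 it was 83.4%. Without thinning, 84.5% of day 1 cells and 11.8% of ATV:RSV cells had 5 or more.

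**Figure D3:**
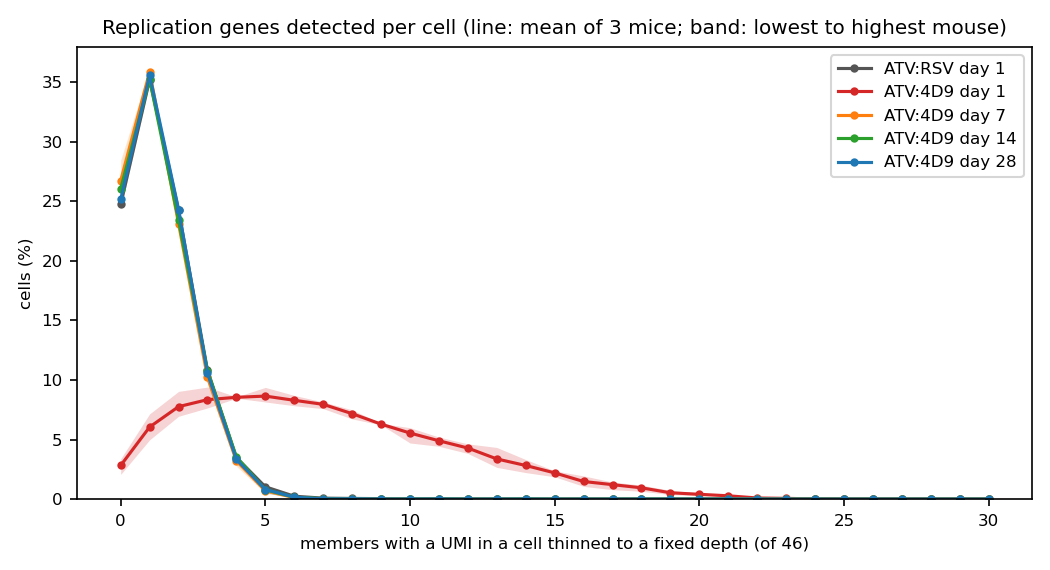
Share of thinned cells (y axis, percent) by the number of the 46 genes with a UMI in the cell (x axis), as the mean of 3 mice per group with a band from the lowest to the highest mouse. The ATV:4D9 day 1 curve is broad with a median of 6 genes, and the curves of ATV:RSV and of days 7, 14 and 28 lie close together with a median of 1.

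For single genes, the share of thinned cells with a UMI was higher on average at day 1 than in ATV:RSV for all 46, with a range of 1.47% to 50.9% at day 1 and 0.0162% to 15.8% in ATV:RSV. Pcna was found in 48.7%, 53.5% and 50.6% of day 1 cells and in 15.7%, 16.6% and 15.2% of ATV:RSV cells. Mcm5 was found in 23.7%, 27.0% and 25.5% of day 1 cells and in 0.967%, 0.824% and 0.839% of ATV:RSV cells, and Rrm2 in 2.41%, 4.68% and 3.96% and in 0.187%, 0.0537% and 0.0699%. Permuting all 5 group labels within each batch (exact, on the variance of the 5 group means) gave p = 0.00958 for Mcm5, 0.0128 for Pcna and 0.0126 for Rrm2 (14400 arrangements). That test asks whether any of the 5 groups differ, and not whether day 1 differs from ATV:RSV. The exact two-sided permutation of 3 mice against 3 gave p = 0.1 at day 1 for each of the 3 genes, the smallest it can give, and 0.24 after adjustment over 12 comparisons. The matrix was deposited as microglia, so no cell type that should lack these genes is at hand, and the share that free RNA gave at day 1 was not tested.

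Most UMIs of each gene at day 1 were in cells that had several of the other genes. The share of a gene's day 1 UMIs in cells with 5 or more of the other genes ran from 73.1% for Gins4 and 75.6% for Rpa3 to 96.5% for Clspn and 97.3% for Rrm2, where such cells were 62.9% to 66.5% of all cells. These are descriptions, since genes found in the same cell share its library and depth.

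Mitotic markers were read in the same thinned cells. The share of cells past a cut depends on the length of the list, the levels of its genes and the cut, so the shares of the 2 lists are not compared in size. From a list of 12 G2/M markers that includes none of the 46, cells with 3 or more were 4.39%, 7.87% and 7.10% of the thinned cells of the day 1 mice (300, 550 and 401 cells), and 20, 4 and 6 cells in the ATV:RSV mice. All 12 markers were called higher at day 1 in the sums per mouse (median log2 fold change 3.90). In that comparison 34.7% of all genes tested were called higher, and the median over all genes was -0.0458. At days 7, 14 and 28 limma-voom called 0 of them, with medians of -1.28, -1.18 and -1.18. At an unadjusted p under 0.05 there were 7, 6 and 6 (2336, 770 and 571 of all 14260 genes). Cells with 3 or more markers numbered 1, 1 and 5 at day 7, 0, 1 and 3 at day 14 and 4, 2 and 2 at day 28. With so few such cells in these groups and in ATV:RSV, the medians say little about a fall below the controls. Of these mitotic cells, 98.7%, 99.5% and 99.5% at day 1 also had 5 or more replication genes. All 46 genes had a larger mean share of their UMIs in mitotic cells than the 6.45% these cells made up, with 38 of them under 20%. Rrm2 stood apart at 61.2%, 65.3% and 69.9% in the 3 mice. Tk1 at 29.6% ± 5.70, Clspn at 29.2% ± 5.98 and Tyms at 24.4% ± 5.77 (SD, n = 3) followed, and Mcm2 at 9.13% ± 2.47, Mcm3 at 9.05% ± 1.98 and Timeless at 7.42% ± 1.54 closed the order. Between these ends the ranges of neighboring genes overlapped, whereas the lowest mouse of Rrm2 was above the highest of any other gene. With a cut of 1 or of 5 markers, Rrm2 remained first, at 88.2% and 35.1%.

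**Figure D4:**
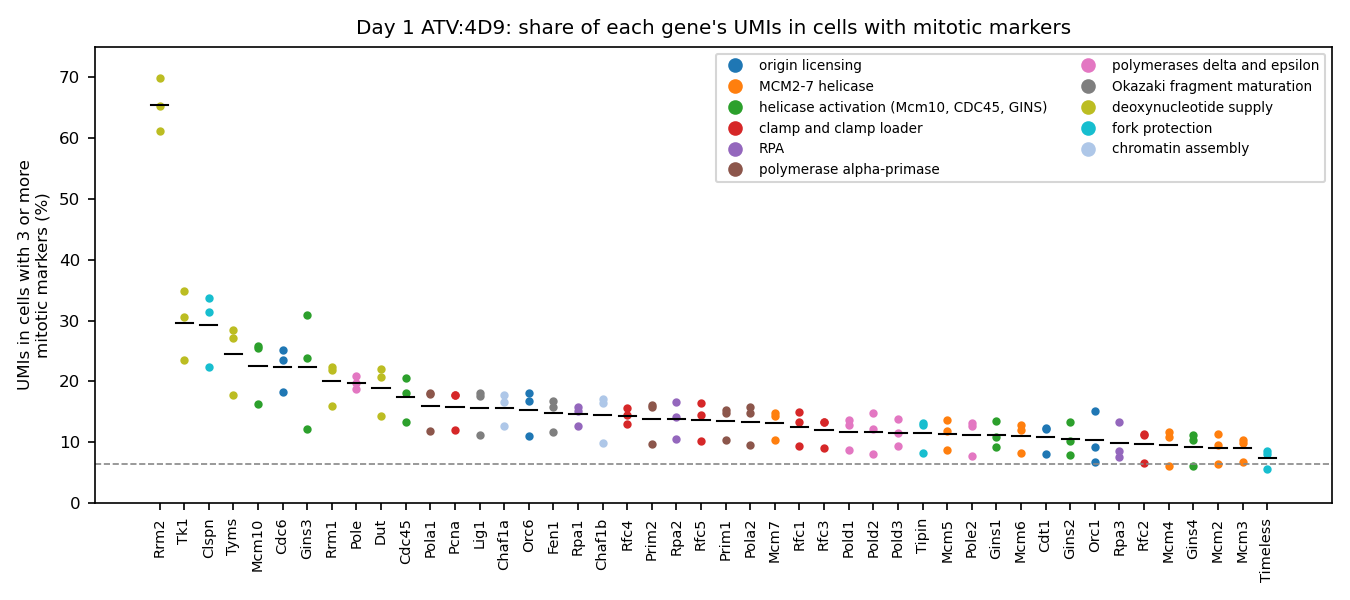
Percent of each gene's UMIs (y axis, thinned cells of the 3 ATV:4D9 day 1 mice) that were in cells with 3 or more of 12 mitotic markers, with genes on the x axis, points for mice colored by role, bars for the mean and a dashed line at the 6.45% of cells that carry the markers. Rrm2 stands alone at 61.2% to 69.9%, and Mcm2, Mcm3 and Timeless lie nearest to the line.

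The rise was also measured after removal of cells in which Mki67 or Top2a was detected, both proliferation markers outside the 46. Such cells were 19.6%, 27.4% and 24.6% of all cells in the day 1 mice and 0.397% to 0.684% in the ATV:RSV mice, in cells that were not thinned and were deeper at day 1. All 46 genes were still called higher at day 1, with a median log2 fold change of 3.10, where 33.8% of the 14119 genes tested in that fit were called higher and 33.3% lower, with a median over all genes of -0.0511. Among the genes named by rule, the largest drops were those of Clspn from 4.08 to 3.02, Tyms from 2.78 to 2.04 and Gins3 from 1.25 to 0.576. Pcna went from 2.62 to 2.17, Mcm6 from 4.53 to 4.33 and Gins2 from 4.23 to 4.03. Mcm10 (7.74 and 7.88) and Timeless (6.51 and 6.58), both with few control UMIs, were the genes of that set without a drop. Rrm2 stood at 1.13, 2.03 and 1.66 CPM over the remaining day 1 cells and at 0.109, 0.0516 and 0 CPM over those of ATV:RSV, both on the plain library total. Mcm5 stood at 74.2, 81.0 and 77.3 CPM over the remaining day 1 cells.

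The deposited clusters carried the genes unequally. They were made by the authors from the genes of these same cells, so the comparison is a description only. Of the day 1 cells, 18416 were in cluster 2, 945 in cluster 0 and 1098 in cluster 1. The summed level of the 46 genes at day 1 was 2561, 2951 and 2784 CPM in cluster 2, 603.2, 718.2 and 619.2 CPM in cluster 0 and 827.5, 1044 and 747.4 CPM in cluster 1. In ATV:RSV it was 414.1 to 427.7 CPM in cluster 0 and 430.2 to 436.0 CPM in cluster 1, so the day 1 cells that were not in cluster 2 were higher as well, in each of the 3 mice. The few ATV:RSV cells of cluster 2, 339 in all, stood at 1107, 1007 and 819.8 CPM. At day 14, 1 mouse had 1147 CPM in cluster 2 and the others 432.2 and 475.8 CPM, from 74 to 92 cells each.

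**Figure D5:**
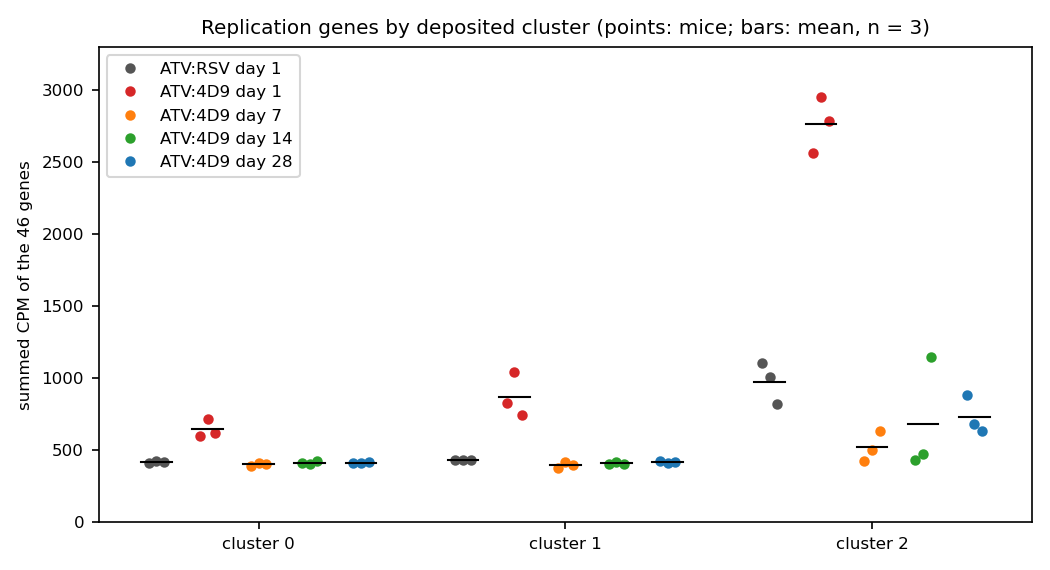
Summed CPM of the 46 genes (y axis, scaled to the total of each cluster) per mouse in deposited clusters 0, 1 and 2 (x axis) and the 5 groups, with points for mice and bars for the mean (n = 3). Cluster 2 at day 1 reaches 2561 to 2951 CPM, and in clusters 0 and 1 the day 1 mice lie above the ATV:RSV mice.

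The cells with replication genes had the markers of microglia. Trem2 was found in 99.6%, Csf1r in 98.6% and P2ry12 in 83.7% of the 12950 day 1 cells with 5 or more of the genes. P2ry12, a gene of resting microglia, was found in 99.3% of ATV:RSV cells. In the 546 day 1 cells without a replication gene, the shares in that order were 99.5%, 97.8% and 80.0%. The lower share of P2ry12 was thus not particular to the cells with replication genes. The monocyte list of 4 genes stood at 13.3 to 17.6 summed CPM in the day 1 mice and at 4.39 to 11.2 CPM in the ATV:RSV mice, without overlap. In the day 1 cells with 5 or more replication genes, Plac8 was found in 2.13%, Ccr2 in 0.541%, Ly6c2 in 0.0463% and Chil3 in 0.0154%. In ATV:RSV cells the same genes were found in 0.395%, 1.68%, 0.0169% and 0.0734%, and in the 546 day 1 cells without a replication gene in 4.21%, 0.549%, 0.366% and 0.183%. These shares are pooled over mice, and the part of such cells in the results was not tested. Neutrophil genes stood at 116.4 CPM in 1 day 7 mouse and at 3.22 and 6.83 CPM in the others, and erythroid genes at 292.4, 7.23 and 162.3 CPM in the ATV:RSV mice and at 1.48 to 25.9 CPM at day 1. The day 1 count of 46 and the day 7 count of 0 did not change without any of these mice. Of the B cell list, Ighm was found in 43.9% of these cells and in 49.6% of the 546 day 1 cells without a replication gene, Cd79b in 7.64% and 10.3%, Cd79a in 0.0541% and 0%, and Ms4a1 in 0% of both. Border macrophage genes stood at 16.8 to 24.3 CPM at day 1 and 16.2 to 19.6 CPM in ATV:RSV. Summed levels over all 15 mice were at most 1.08 CPM for the T cell list, 1.17 CPM for NK cells, 1.15 CPM for OPCs and 0.469 CPM for ependymal cells. Oligodendrocyte, astrocyte, endothelial and neuron lists ranged from 3.85 to 37.9 CPM.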

How the data were processed

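The deposited matrix held raw UMI counts per gene and cell, made by the authors by mapping to mm10 with Cell Ranger (4.0.0 in the submitters' processing notes, other versions in the methods) and filtering and clustering in Seurat. The deposited cell table gave the mouse, the cluster, the UMI count and the percent of mitochondrial UMIs of each cell, per the file headers. Its UMI counts equaled the matrix sums in 102043 of 102043 cells. Cells reached 667 to 24995 UMIs and at most 10% mitochondrial UMIs. How doublets were treated is not given in the sources used here, and results were repeated after dropping each mouse's 5% of cells of highest UMI count. A 16th animal named in the labels was not analysed here.

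Counts were summed per mouse, filtered with filterByExpr (minimum count 10, minimum total 15), scaled by TMM (edgeR 4.0.16) and fitted by limma-voom in limma 3.58.1 under R 4.3.3, with 1 mean per group over all 15 mice. P-values were Benjamini-Hochberg adjusted over 14260 genes at 0.05. CPM are given per mouse, except that cluster, marker and Mki67 or Top2a readings use the plain total. Alternatives were edgeR, DESeq2 1.42.0, library size or RLE scaling, no filter or a minimum count of 30, sample weights, the batch block, each mouse left out, and thinned cells. The scripts were tested on simulated data. Shares of cells were tested by exact permutation, two-sided where 3 mice were set against 3. Intervals from counting were not used, since mice are the replicates. With 3 mice a group, a p-value sets a difference against the spread between mice. In limma-voom that spread was estimated over all 15 mice and moderated across genes.

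The labels say that each batch holds all conditions, so batch pairs the mice. Across genes, deviations of 2 mice of a batch had an average correlation of 0.0358 (30 pairs, -0.269 to 0.272), against -0.0176 for mice of different batches (60 pairs).

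The 46 genes, the other lists and the rule for named genes were chosen with earlier results of these data known. Values per mouse were printed for the 2 genes of each role with the highest mean CPM and for the 3 largest and 3 smallest day 1 changes, and genes outside this rule are named as such. The 39 other genes were a written list of the same pathway. Gene positions are 1-based, mm10, from GENCODE M21, and all 46 are protein coding.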

Additional observations from a re-analysis of the deposited data

Results flagged for a closer look

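The response at day 1 and at day 7, each set against the same ATV:RSV mice, differed in a test of the difference itself: limma-voom called 46 of the 46 replication genes lower at day 7 of ATV:4D9 than at day 1, by a median log2 fold change of -3.41. In the same comparison 33.9% of all genes tested were called lower and 33% higher. Single outlying mice were not looked for, since each group held 3.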

How the results depend on the processing

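All 46 genes were called higher at day 1, and lower from day 1 to day 7, under each of 11 alternatives and without any of the 15 mice (46 to 46 genes). Over all genes, the 11 alternatives called 8478 to 10649 in either direction at day 1, and 8122 to 9943 from day 1 to day 7. The counts at days 14 and 28 were 0 throughout. The day 7 count was 0 without any mouse, but edgeR called 2 genes, DESeq2 2, the fit without cells with a Mki67 or Top2a UMI 2, library size scaling 1 (Gins4, lower) and the replicate block of batch 1 (Pola2, higher). Over all genes the day 7 count was 568, against 635, 871, 633, 1199 and 1014 under these settings. The block changed no other call among the 46, which gave 46, 1, 0 and 0 genes at days 1, 7, 14 and 28. The other 39 genes gave 35 to 37 calls under the alternatives and 34 to 36 without a mouse. Day 1 shares of cells moved with depth, by construction. Thinned to 4383 UMIs they were 31.7% for Mcm5, 59.6% for Pcna and 76.4% for 5 or more genes. Without thinning they were 49.2%, 73.6% and 84.5%, and 7.55% for Rrm2. The cuts of 3 and 10 genes gave 83.4% and 28.1%. Without a mouse they ran from 24.6% to 26.2%, 49.7% to 52.1%, 3.19% to 4.32% and 64.8% to 68.5%. Depth limits Cdc6, Mcm10, Orc1 and Pole, with under 20 UMIs in each ATV:RSV mouse, and Rrm2, with 63, 12 and 16, so their fold changes are rough. For these genes the lack of a call at days 7, 14 and 28 says little.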
